A study of Mus musculus with 119 samples.

Results

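Regulators of G-protein signalling (RGS proteins) are named here by 7 genes, *Rgs1*, *Rgs2*, *Rgs3*, *Rgs10*, *Rgs16*, *Rgs18* and *Rgs19*. They were taken by symbol, as the rows of these names among the 18098 genes of the table of mouse bone marrow-derived macrophages (BMDMs). All 7 passed the filter on low values in both models used below, and each was followed across 25 groups of libraries.

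G-protein-coupled receptors act by loading a G-protein alpha subunit with GTP, and the signal ends when the alpha subunit hydrolyses that GTP. An RGS protein binds the active alpha subunit through its RGS domain and speeds the hydrolysis, so that signalling from the receptor stops sooner. In leukocytes RGS proteins are best known for limiting the response to chemokines, whose receptors couple to Gi. *Rgs1*, *Rgs16* and *Rgs18* encode small members that act on Gi and Gq alpha subunits, *Rgs2* encodes a small member that prefers Gq, and *Rgs3* encodes a larger member that also acts on Gi and Gq. *Rgs10* encodes a small member that acts on Gi alpha subunits and is abundant in microglia and macrophages, and *Rgs19*, also called GAIP, encodes a member with a cysteine-rich N-terminus that acts on Gi alpha subunits.

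RNA-seq was made of BMDMs from C57BL/6(NIMR) mice that were left unstimulated or were given lipopolysaccharide (LPS), a Toll-like receptor 4 ligand, at 100 ng/ml. WT cells gave 22 libraries, 6 at each of 0, 0.5 and 1 h and 4 at 2 h. *Map3k8*[D270A] cells, whose TPL-2 kinase is catalytically inactive, gave 24 libraries, 6 at each of the 4 times. *Elk1*-/-*Elk4*-/- cells, which lack both of these ternary complex factors, gave 16 libraries, 4 at each time, and *Nfkb1*[SS/AA] cells, whose p105 resists signal-induced proteolysis and holds TPL-2 inactive, gave 18 libraries, 6 at each of 0, 0.5 and 1 h. WT cells were also given 0.1 µM PD0325901, an inhibitor of the kinases MKK1/2 that activate ERK1/2, in 21 libraries. Of these, 3 each were taken after 10, 40 and 70 min of inhibitor without LPS, and 6 each were given LPS for 0.5 or 1 h after 10 min of inhibitor. The labels do not say whether replicates 4 to 6 with LPS are independent of replicates 1 to 3. Averaging them in pairs left 44 results for single members the same and ended 5 calls. DMSO, the solvent, was given for 10 min in 3 libraries. RSKi47, an inhibitor of RSK1/2, which are kinases activated by ERK1/2, was given at 2 µM in 15 libraries, of which 3 had LPS for 0.5 h and 4 each had none or had it for 1 or 2 h. The cells were grown from bone marrow in L-cell conditioned medium, and the mutant alleles are those of the mice, not of macrophages alone.

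The values are log2-scale normalised levels, and a difference of 1 is a 2-fold change if the logarithm is base 2. The base could not be settled from the sources used here, and natural logarithms would make each difference larger by a factor of 1.44. The number of reads behind a level is unknown, so the precision rests on the spread between libraries. The methods call the libraries biological replicates, the labels do not say whether those of a group came from separate mice, and the p-values measure only the spread between these libraries. Adjusted p-values are from limma with Benjamini-Hochberg adjustment over all genes tested, and changed means an adjusted p below 0.05. In bulk RNA, a change in the number of cells of a type and a change in RNA per cell cannot be told apart.

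*Rgs1*, *Rgs2*, *Rgs16* and *Rgs18* lie on mouse chromosome 1 (GRCm38.p6, RefSeq). *Rgs2* (gene 19735) spans chr1:143999338-144004149, *Rgs1* (50778) spans chr1:144244669-144249104, *Rgs18* (64214) spans chr1:144752683-144775427 and *Rgs16* (19734) spans chr1:153740353-153745468. *Rgs3* (50780) spans chr4:62559835-62703019, *Rgs10* (67865) spans chr7:128373621-128419506 and *Rgs19* (56470) spans chr2:181688419-181694537. RefSeq promoter windows were matched for 5 of the 7 genes by symbol, and none was used for *Rgs1* and *Rgs18*.

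The promoters of 3 genes are shown as the 250 bases before an annotated RefSeq start, *Rgs2* and *Rgs16* because their levels moved in opposite directions after LPS, and *Rgs3* because its level differed between genotypes after LPS. The windows are chr1:144004150-144004399 on the minus strand for *Rgs2*, chr1:153740103-153740352 on the plus strand for *Rgs16* and chr4:62559597-62559846 on the plus strand for the first of 2 *Rgs3* starts, all in GRCm38.p6. Capitals mark matches to core promoter letters: CCAAT (or its reverse complement ATTGG), GGGGCGGGG (or CCCCGCCCC) and TATAAA.
Rgs2: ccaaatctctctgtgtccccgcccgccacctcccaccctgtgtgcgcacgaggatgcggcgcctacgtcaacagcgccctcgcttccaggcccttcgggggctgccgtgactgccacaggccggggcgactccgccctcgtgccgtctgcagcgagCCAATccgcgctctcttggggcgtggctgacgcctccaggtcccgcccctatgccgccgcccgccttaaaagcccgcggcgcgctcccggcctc
Rgs16: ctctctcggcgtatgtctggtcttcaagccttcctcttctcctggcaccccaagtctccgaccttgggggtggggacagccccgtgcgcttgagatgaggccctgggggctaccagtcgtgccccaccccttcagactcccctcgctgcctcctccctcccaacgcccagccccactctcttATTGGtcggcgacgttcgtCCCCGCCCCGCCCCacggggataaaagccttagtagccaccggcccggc
Rgs3: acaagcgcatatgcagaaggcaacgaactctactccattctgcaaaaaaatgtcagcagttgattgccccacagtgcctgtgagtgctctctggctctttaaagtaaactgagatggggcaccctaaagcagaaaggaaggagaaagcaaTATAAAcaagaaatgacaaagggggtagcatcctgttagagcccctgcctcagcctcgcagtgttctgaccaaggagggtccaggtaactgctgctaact
CCAAT letters began 94 bases before the start of *Rgs2* on the forward strand and 68 bases before that of *Rgs16* on the reverse strand, and 33.8% of 32851 mouse windows of the same length hold them. *Rgs16* also held 2 overlapping GC boxes on the reverse strand, 49 and 44 bases before its start, against 10.4% of windows with any, and these do not overlap its CCAAT letters. TATAAA stood 100 bases before the *Rgs3* start, and 12.4% of windows hold it on either strand. These 3 elements were searched after the windows had been seen. Letters searched on both strands for factors of this pathway, TGANTCA for AP-1 (6.75% of windows), TGACGTCA for CREB (1.55%), CCGGAAGT for ETS factors (2.88%), GCGTGGGCG and GCGGGGGCG for EGR factors (0.536% and 2.57%), and the CArG box and NF-κB motif by name (1.47% and 7.25%), had no match in the windows of the 5 genes. No match says only that these letters are not in these windows.

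Macrophage markers were high in all groups, and some markers of other cells were present and not equal between groups. The platelet marker *Pf4* had levels of 10.30 to 12.10 over all libraries, whereas the other platelet markers reached at most 5.62. The summed platelet marker level given below is therefore largely that of *Pf4*. As the log2 of linear levels summed over 8 genes including *Adgre1*, *Csf1r* and *Lyz2*, the macrophage level was 18.61 to 18.80 in unstimulated WT libraries, 18.35 to 18.44 in *Elk1*-/-*Elk4*-/- libraries and 18.73 to 18.85 in RSKi47 libraries. In the double knockout 1 of the 8, *Lyz2*, was below every unstimulated WT library (17.47 to 17.63 against 17.94 to 18.23) and 2, *Adgre1* and *Fcgr1*, were above. The summed level of 8 neutrophil markers was 9.77 to 10.24 in unstimulated *Elk1*-/-*Elk4*-/- libraries and 6.22 to 7.03 in WT libraries, and all 8 markers were above every WT library, although 3 of them were under the filter on low values in both groups. In unstimulated RSKi47 libraries 2 of the 8 macrophage markers were below every WT library, *Adgre1* at 14.53 to 14.98 against 15.12 to 15.22 and *Cd14* at 13.04 to 13.67 against 13.74 to 13.92, and 1 was above, *Csf1r* at 15.19 to 15.36 against 14.81 to 15.10. Their summed neutrophil level was 7.26 to 7.59 without LPS and 7.69 to 8.35 at 2 h, against 6.22 to 7.03 and 6.27 to 7.58 in WT, with 3 and 2 of the 8 markers above every WT library and 5 under the filter. The summed fibroblast level was above that of WT in all RSKi47 libraries. Of its 5 markers 3 were under the filter in both arms without LPS and at 2 h. Over all libraries *Col1a1* and *Col1a2* reached 9.03 and 7.28, and the other markers at most 2.29. Without LPS the summed fibroblast level was 5.99, 5.90 and 5.38 in RSKi47 replicates 1 to 3 and 9.42 in replicate 4, against 4.05 to 4.43 in WT. In replicate 4 it was 7.32 at 1 h and 6.50 at 2 h. The lowest RSKi47 library had 5.06, at 0.5 h, and the highest WT library of any time had 4.93. In unstimulated *Nfkb1*[SS/AA] libraries 1 of the 8 macrophage markers, *Adgre1*, was below every WT library (14.74 to 14.89 against 15.12 to 15.22) and 0 were above. Their summed neutrophil level at 1 h was 7.13 to 8.14, overlapping the 6.25 to 7.58 of WT. The part of these markers in the results below was not tested. All 4 T and NK cell markers and all 3 B cell markers in the table were below the filter. In the double knockout *Elk1* was 6.22 to 6.59 without LPS against 9.07 to 9.22 in WT, and *Elk4* was 5.54 to 5.88 against 7.57 to 7.80. WT and *Map3k8*[D270A] libraries carry the label of one experiment, whereas the *Elk1*-/-*Elk4*-/-, *Nfkb1*[SS/AA], PD0325901 and RSKi47 libraries each carry one of their own, so that genotype or inhibitor and experiment cannot be told apart in their comparisons with WT. All of these comparisons use the same WT libraries.

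In WT BMDMs LPS raised *Rgs1* early and *Rgs16* later, and lowered *Rgs2* and *Rgs18*. *Rgs1* had levels of 12.22 to 12.54 (median 12.33) without LPS, 13.04 to 13.39 (median 13.15) at 0.5 h and 13.15 to 13.33 (median 13.30) at 1 h. At 2 h the 4 libraries had 12.51, 12.31, 12.39 and 12.63. *Rgs1* thus rose by 0.83 ± 0.08 (SE; adjusted p = 1.27e-12) at 0.5 h and by 0.93 ± 0.08 (adjusted p = 1.29e-15) at 1 h with no overlap between libraries, and from 1 to 2 h it fell by 0.82 (adjusted p = 3.84e-12). Its difference from unstimulated cells at 2 h was 0.12 (adjusted p = 0.23), 0.16 (adjusted p = 0.0246) with the replicate number as a block, a pairing that the WT libraries bear out, and -0.29 (adjusted p = 0.000955) under quantile normalization, so that its direction at 2 h depends on the scaling.

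*Rgs2* had levels of 12.81 to 12.95 (median 12.90) without LPS, 12.71 to 12.78 (median 12.75) at 0.5 h and 11.85 to 12.19 (median 12) at 1 h. At 2 h it had 11.45, 11.37, 11.53 and 11.64, below every library of the earlier times. The fall was 0.88 at 1 h (SE 0.06, adjusted p = 4.3e-19) and reached -1.40 at 2 h (SE 0.07, adjusted p = 3.99e-26). *Rgs18* had 10.56 to 10.75 (median 10.66) without LPS and 10.33 to 10.64 (median 10.47) at 1 h, which overlap, and then had 9.73, 9.55, 9.63 and 10.02 at 2 h. It fell by 0.17 at 1 h (SE 0.06, adjusted p = 0.0102) and by 0.92 at 2 h (SE 0.06, adjusted p = 2.48e-19).

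*Rgs16* was the member with the widest spread between WT libraries, 7.64 to 8.63 (median 8.04) without LPS and 8.50 to 9.65 (median 8.98) at 1 h, with replicate 9 the highest at 0, 0.5 and 1 h. At 2 h it had 9.11, 8.89, 8.96 and 9.42, all above the unstimulated libraries. It rose by 0.93 ± 0.20 at 1 h (adjusted p = 0.000114) and by 1.04 ± 0.23 at 2 h (adjusted p = 5.73e-05). *Rgs19* fell by 0.16 at 1 h and 0.35 at 2 h (adjusted p = 2.01e-05 and 5.2e-13), from 10.61 to 10.76 (median 10.72) without LPS to 10.36, 10.39, 10.30 and 10.34. *Rgs10* fell by 0.09 at 1 h (adjusted p = 0.0418, a call that leaving out any one of 6 libraries ended) and by 0.22 at 2 h (adjusted p = 2.28e-06). *Rgs3* was 0.18 lower at 1 h (SE 0.06, adjusted p = 0.00583) and differed by 0.00 at 0.5 and 2 h.

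Counted over the members, 1 of 7 had changed at 0.5 h against 11.6% of all genes tested, 7 of 7 at 1 h (2 higher, 5 lower) against 46.8%, and 5 of 7 at 2 h (1 higher, 4 lower) against 71.5%. With the replicate block the count was 4 at 0.5 h against 21.9% of all genes and 6 at 2 h against 78%. At 0.5 h *Rgs2* at -0.15, *Rgs10* at -0.10 and *Rgs16* at 0.26 were then past the threshold besides *Rgs1*. The median difference of the members at 2 h was -0.22, against -0.02 over all genes, and *Rgs2* and *Rgs16* changed by 2-fold or more. Between 1 and 2 h, 6 of 7 members changed (1 higher, 5 lower) against 65.3%. The member that rose in that interval was *Rgs3*, by 0.18 (adjusted p = 0.00896), a call lost without WT replicate 5 at 2 h (0.13).

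**Figure D1:**
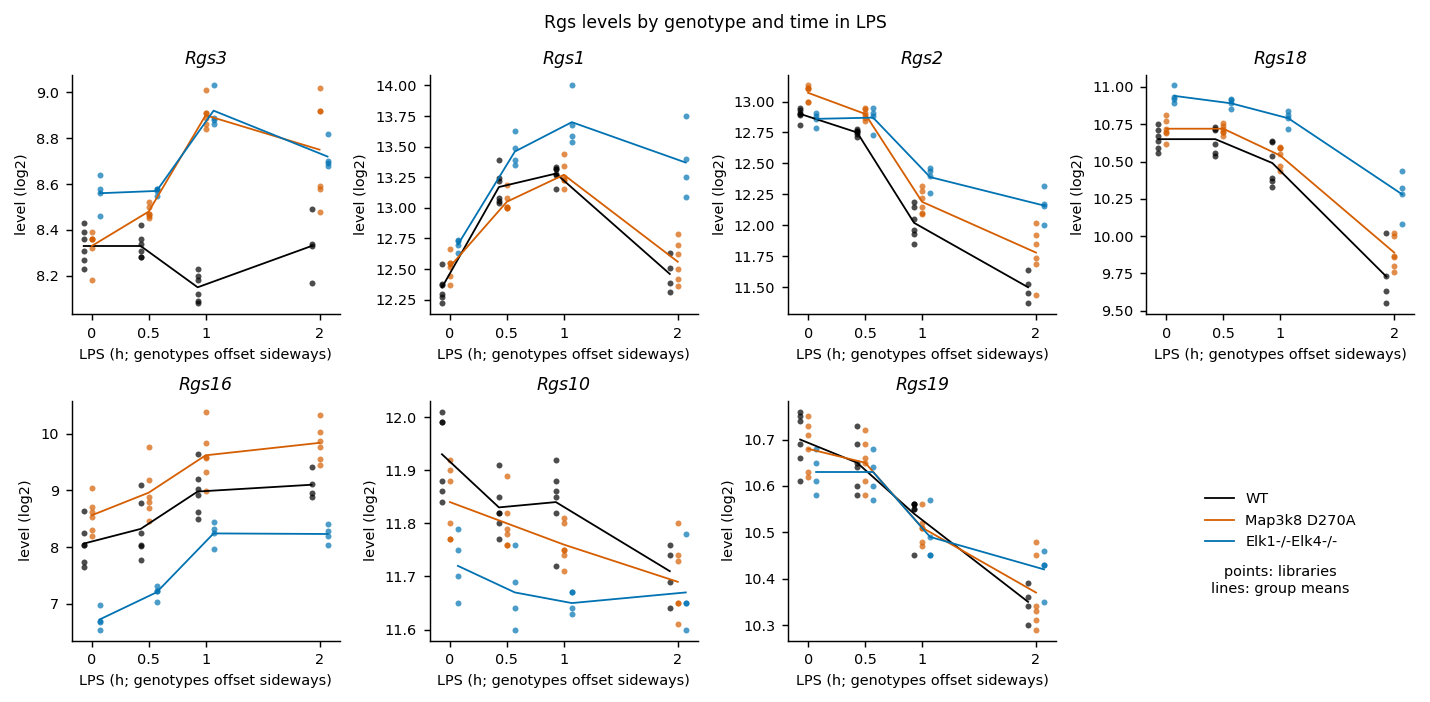
Normalised log2 level of each of the 7 genes (y axis) against hours of LPS (x axis) in WT, *Map3k8*[D270A] and *Elk1*-/-*Elk4*-/- BMDMs, set slightly apart sideways, with a point for each library and a line through the group means. *Rgs1* rises to about the same level at 0.5 and 1 h in WT and has fallen back at 2 h, the *Rgs2* mean of WT falls from each time to the next, and *Rgs3* at 1 h lies at 8.08 to 8.23 in WT and at 8.84 or above in the libraries of the other genotypes.

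LPS also changed members in the mutant and RSKi47-treated cells. In *Map3k8*[D270A] cells 1, 6 and 6 members changed at 0.5, 1 and 2 h against 5.08%, 41.9% and 69.5% of genes. In *Elk1*-/-*Elk4*-/- cells 1, 5 and 6 members changed against 4.96%, 33.3% and 67.2%, and in *Nfkb1*[SS/AA] cells 1 and 5 changed at 0.5 and 1 h against 14.6% and 44.4%. In RSKi47-treated cells 1, 4 and 6 members changed at 0.5, 1 and 2 h against 5.1%, 29% and 62.2%. The member that changed at 0.5 h without the replicate block was *Rgs1* in each case, by 0.53, 0.76, 0.79 and 0.87 in these 4 arms. With the block, the 0.5 h count was 3 in *Map3k8*[D270A] cells, with *Rgs2* at -0.17 and *Rgs16* at 0.40 in addition, 3 in *Nfkb1*[SS/AA] cells, with *Rgs16* at 0.44 and *Rgs19* at -0.08, and 2 in RSKi47-treated cells, with *Rgs2* at -0.45, against 8.46%, 24% and 6.83% of genes with the block. At 1 h it was 6, 6 and 5 in *Elk1*-/-*Elk4*-/-, *Nfkb1*[SS/AA] and RSKi47-treated cells against 44.5%, 53.7% and 38.6%. The block added *Rgs18* in *Elk1*-/-*Elk4*-/- (-0.15) and *Nfkb1*[SS/AA] cells (-0.10) and *Rgs19* in RSKi47-treated cells (-0.09).

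At matched times the arms differed in how many members stood apart from WT. *Map3k8*[D270A] cells differed in 0 of 7 members without LPS and 0 of 7 at 0.5 h by limma, against 1.44% and 1.37% of genes. There were 4 and 3 members at an unadjusted p below 0.05, against 1420 and 1338 of 11884 genes. Alternative settings gave up to 5 and 4 members, both with the replicate number as a block. Numbers of different genotypes were not shown to pair, and the share of all genes with that block is not given here. At 1 and 2 h, 2 and 3 members were higher and none lower, against 9.79% and 27.7%. *Elk1*-/-*Elk4*-/- cells differed in 5 members at 0 h (3 higher, 2 lower) and 5 at 0.5 h (3 higher, 2 lower), and in 6 at 1 h (4 higher, 2 lower) and 5 at 2 h (4 higher, 1 lower). The shares of all genes were 51.8%, 44.4%, 53.4% and 50.8%.

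*Nfkb1*[SS/AA] cells differed in 3, 2 and 3 members at 0, 0.5 and 1 h against 32%, 32.3% and 42.5% of genes. RSKi47-treated cells differed in 6, 6, 4 and 4 members at 0, 0.5, 1 and 2 h against 53%, 48.2%, 52.8% and 52.1%, and each of these members was lower up to 1 h, whereas 2 were higher and 2 lower at 2 h. PD0325901 with LPS differed from WT with LPS in 1 member at 0.5 h and 2 at 1 h against 29.4% and 35.7%. PD0325901 for 10 min differed from DMSO in no member and in 0% of genes by limma, with no member at an unadjusted p below 0.05 and none under the alternatives run, whereas 245 of 11971 genes had such an unadjusted p. DMSO-treated libraries themselves differed from unstimulated WT libraries in 1 member, *Rgs16*, against 23.6% of genes.

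The difference between 2 LPS responses, each taken against its own unstimulated libraries, removes a shift of level that is already present without LPS. For *Map3k8*[D270A] cells it was past the threshold for 0, 1 and 1 members at 0.5, 1 and 2 h, against 0.109%, 2.02% and 15.5% of genes. At 0.5 h 1 member had an unadjusted p below 0.05, against 249 of 11884 genes. For *Elk1*-/-*Elk4*-/- cells the difference of responses was past the threshold for 0, 2 and 4 members against 0.0589%, 1.35% and 16.9%, and for *Nfkb1*[SS/AA] cells for 0 and 1 members against 0.309% and 6.07%. For RSKi47 it was 0, 2 and 3 members against 0.0251%, 5.54% and 21%. The replicate numbers pair the RSKi47 libraries at 0 and 2 h as they do the WT libraries, and with the replicate block 7 of 7 members passed at 2 h against 31.8% of genes, *Rgs3* at 0.22 (adjusted p = 0.0336), *Rgs10* at 0.20, *Rgs16* at 0.57 and *Rgs19* at 0.12 in addition. With the block *Rgs16* also passed in *Elk1*-/-*Elk4*-/- cells at 1 h, at 0.59 (adjusted p = 0.00614, against 0.805 without the block), which made 3 members against 2.94% of genes. In the *Elk1*-/-*Elk4*-/-, *Nfkb1*[SS/AA] and RSKi47 arms no member had an unadjusted p below 0.05 at 0.5 h, against 528 of 11884, 369 of 11971 and 451 of 11971 genes. For PD0325901, with the inhibitor for the same total time as baseline, it was 1 and 4 members at 0.5 and 1 h against 1.49% and 3.58%. Each of these differences that passed without the block was positive, and *Rgs3* at 1 h was among them in all arms except RSKi47.

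**Figure D2:**
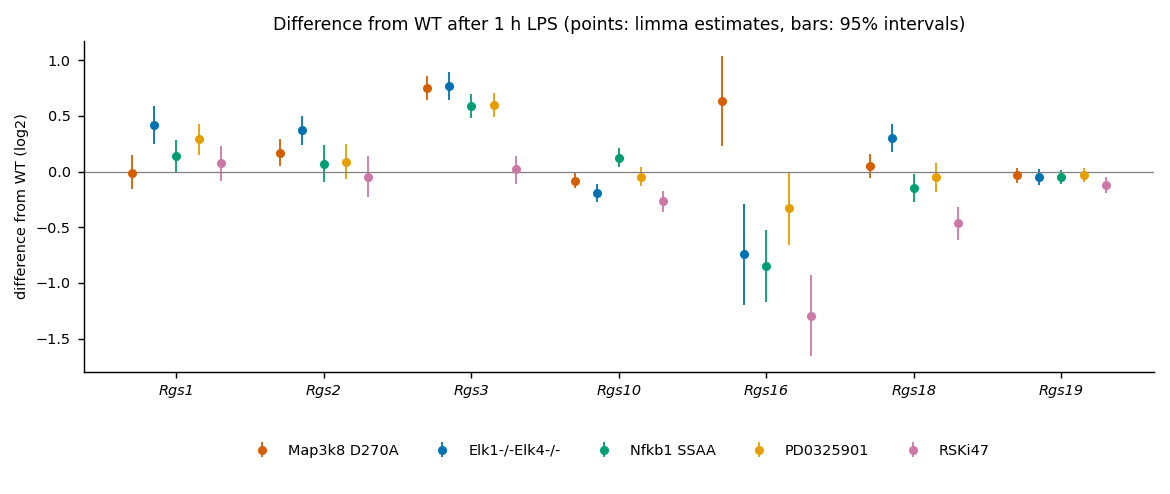
Difference from WT at 1 h of LPS for each of the 7 genes (y axis, log2 scale) in *Map3k8*[D270A], *Elk1*-/-*Elk4*-/-, *Nfkb1*[SS/AA], PD0325901 and RSKi47 BMDMs, with bars for the 95% confidence interval of limma. *Rgs3* lies between 0.59 and 0.77 in 4 arms and at 0.02 with RSKi47, while *Rgs16* lies above 0 in *Map3k8*[D270A] cells and below 0 in the other arms.

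*Rgs3* was higher than in WT at 1 h of LPS in *Map3k8*[D270A], *Elk1*-/-*Elk4*-/-, *Nfkb1*[SS/AA] and PD0325901-treated cells, and its difference with RSKi47 was 0.02. At 1 h it had 8.08 to 8.23 (median 8.15) in WT libraries and 8.84 to 9.01 (median 8.90) in *Map3k8*[D270A] libraries, with no overlap. The difference was 0.75 (SE 0.06, adjusted p = 1.93e-15), against -0.01 without LPS and 0.15 (adjusted p = 0.244) at 0.5 h. Within *Map3k8*[D270A] cells *Rgs3* rose by 0.58 at 1 h (adjusted p = 4.14e-13), where it fell in WT, and the difference of the 2 responses was 0.76 (SE 0.08, adjusted p = 8.35e-10). WT replicates 4 to 6 with *Map3k8*[D270A] replicates 1 to 3, and WT 7 to 9 with 4 to 6, had grouped together in an earlier analysis of these data, and within these sets the difference of responses was 0.74 and 0.77. The labels do not name these sets.

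At 2 h the WT libraries had 8.34, 8.49, 8.17 and 8.33, and *Map3k8*[D270A] replicates 1 to 3 had 8.48, 8.59 and 8.58 whereas replicates 4 to 6 had 8.92, 8.92 and 9.02. The groups overlapped by 1 library, and the difference was 0.42 (SE 0.06, adjusted p = 4.39e-07). Within the 2 replicate sets the difference of responses at 2 h was 0.21 (adjusted p = 0.085) and 0.64, the second with 1 WT library at 2 h.

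*Elk1*-/-*Elk4*-/- libraries had *Rgs3* at 8.58, 8.46, 8.56 and 8.64 without LPS and at 8.86, 8.88, 9.03 and 8.89 after 1 h. Both sets lay above every WT library of the same time, whose unstimulated levels were 8.23 to 8.43 (median 8.33). The difference from WT was 0.23 without LPS, 0.24 at 0.5 h, 0.77 at 1 h (SE 0.06, adjusted p = 1.26e-14) and 0.39 at 2 h, and all 4 passed the threshold. The difference of responses was 0.54 at 1 h (adjusted p = 7.73e-05) and 0.16 at 2 h (adjusted p = 0.262). *Nfkb1*[SS/AA] libraries had 8.34 to 8.69 (median 8.48) without LPS, overlapping WT, and 8.58 to 8.86 (median 8.79) at 1 h, above all WT libraries. Their difference from WT was 0.19, 0.24 and 0.59 at 0, 0.5 and 1 h (adjusted p = 0.00556, 0.0004 and 4.32e-16), and the difference of responses at 1 h was 0.41 (adjusted p = 8.68e-05).

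With PD0325901 and no LPS *Rgs3* had 8.50, 8.43 and 8.34 after 10 min of inhibitor and 8.47, 8.45 and 8.45 after 70 min. With LPS for 1 h it had 8.58 to 8.86 (median 8.81), above these. Inhibitor alone did not move it past the threshold (0.04 at 70 against 10 min, adjusted p = 0.895). LPS for 1 h raised it by 0.30 over the libraries with 70 min of inhibitor alone (adjusted p = 0.000151), and the difference from WT with LPS was 0.03 at 0.5 h and 0.60 at 1 h (SE 0.06, adjusted p = 5.97e-16). RSKi47 libraries at 1 h had 8.01, 8.20, 8.29 and 8.17, on both sides of the WT range. The difference from WT was 0.02, with a 95% interval of -0.11 to 0.14, and the difference of responses was -0.04 (adjusted p = 0.904). At 2 h RSKi47 libraries had 8.52, 8.55, 8.66 and 8.75, all above the WT libraries, by 0.29 (adjusted p = 0.000214), and their difference of responses was 0.23 (adjusted p = 0.0689), or 0.22 (adjusted p = 0.0336) with the replicate block.

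Ordered by group mean, *Rgs3* ran from 8.15 in WT at 1 h to 8.92 in *Elk1*-/-*Elk4*-/- at 1 h, a range of 0.77. None of the 24 neighbouring pairs of groups in that order had libraries without overlap.

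**Figure D3:**
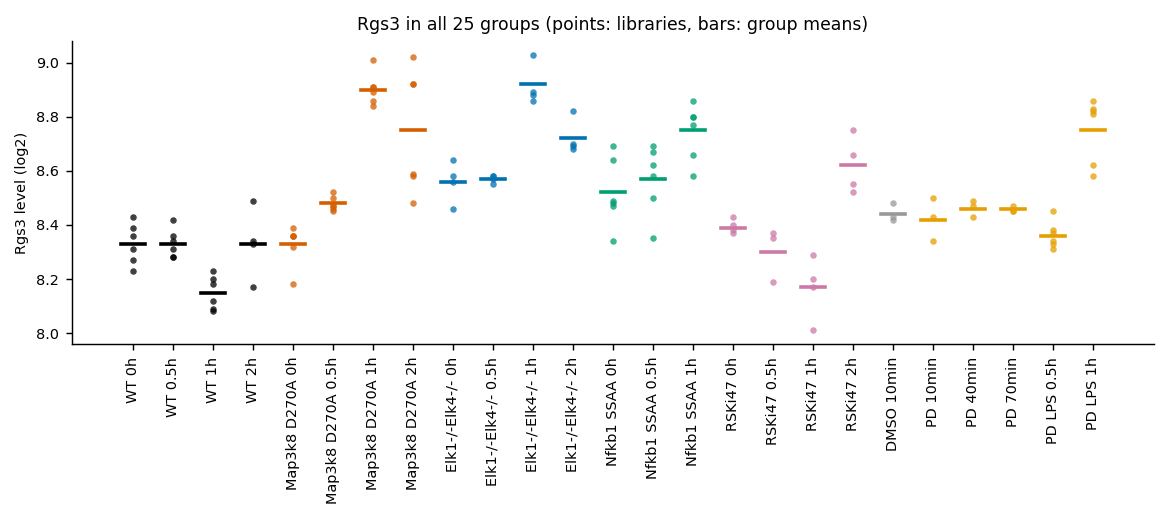
Normalised log2 level of *Rgs3* (y axis) in each library of the 25 groups (x axis), with a bar for the group mean. The 4 highest group means at 1 h belong to *Elk1*-/-*Elk4*-/-, *Map3k8*[D270A], *Nfkb1*[SS/AA] and PD0325901 cells, and RSKi47 cells at 1 h overlap WT cells at 1 h.

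*Rgs1* and *Rgs2*, neighbours on chromosome 1, both fell with time in PD0325901 without LPS. *Rgs1* had 12.47, 12.56 and 12.55 at 10 min, 11.52, 11.47 and 11.53 at 40 min and 10.52, 10.60 and 10.58 at 70 min, whereas DMSO libraries at 10 min had 12.49, 12.41 and 12.47. The 3 times did not overlap, and the level fell by 1.03 at 40 min (SE 0.10, adjusted p = 1.65e-14) and by 1.97 at 70 min (SE 0.10, adjusted p = 1.77e-32). *Rgs2* had 12.91, 12.93 and 12.89, then 12.48, 12.47 and 12.52, then 11.77, 11.81 and 11.91. It fell by 0.42 at 40 min (adjusted p = 0.0227, a call lost without any one of 5 libraries) and by 1.08 at 70 min (SE 0.12, adjusted p = 2.97e-12). These were the members that changed, 2 of 7 at each time, against 3.58% and 6.09% of all genes.

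No DMSO library of 40 or 70 min was analysed here, so the action of the inhibitor and the time in culture after its addition cannot be told apart. The summed neutrophil marker level also moved, from 7.14 to 7.82 at 10 min to 8.16 to 8.22 at 70 min, with 6 of 8 markers above every 10 min library and 5 of 8 under the filter, and its part in the result was not tested. By limma 1 of 5 neutrophil markers tested passed at 70 min, higher, and 2 had an unadjusted p below 0.05, against 729 and 2044 of 11971 genes. Of the 8 macrophage markers 0 passed, and 0 had an unadjusted p below 0.05.

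With LPS in the presence of PD0325901, *Rgs1* had 13.05 to 13.15 (median 13.10) at 0.5 h and 13.45 to 13.74 (median 13.55) at 1 h. Against inhibitor alone for the same total time this was a rise of 1.59 at 0.5 h (SE 0.09, adjusted p = 3.72e-31) and of 3.01 at 1 h (SE 0.09, adjusted p = 5.84e-54). Against WT with LPS it was a difference of -0.07 at 0.5 h and 0.29 at 1 h (SE 0.07, adjusted p = 0.000536). The difference of responses between PD0325901 and WT was thus 0.77 at 0.5 h and 2.07 at 1 h with the matched inhibitor libraries as baseline, and -0.26 and 0.11 with the 10 min inhibitor libraries as baseline. Counted over the members, LPS with inhibitor against inhibitor alone changed 1 of 7 at 0.5 h and 5 of 7 at 1 h (4 higher, 1 lower), against 14.9% and 43.6% of genes.

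*Rgs2* with PD0325901 and LPS had 12.57 to 12.74 (median 12.67) at 0.5 h and 12.05 to 12.22 (median 12.09) at 1 h, above the 3 libraries of 70 min of inhibitor alone. The difference from these was 0.28 at 1 h (adjusted p = 0.0181), a call lost without inhibitor replicate 1 (0.25) or 2 (0.27). Against WT with LPS it was -0.08 and 0.09, neither past the threshold.

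*Rgs1* was higher in the double knockout at all 4 times, and *Rgs2* at 1 and 2 h. *Elk1*-/-*Elk4*-/- libraries had 12.70, 12.74, 12.73 and 12.63 without LPS, 13.59, 13.68, 14 and 13.54 at 1 h and 13.25, 13.40, 13.75 and 13.09 at 2 h, each above every WT library of that time. The difference from WT was 0.36, 0.29, 0.42 and 0.91 at 0, 0.5, 1 and 2 h (adjusted p = 2.02e-11 at 2 h), and the response at 2 h was 0.55 larger than in WT (SE 0.13, adjusted p = 0.0013). *Rgs2* fell less in these cells, with 12.40, 12.44, 12.46 and 12.26 at 1 h and 12.16, 12.17, 12.32 and 12 at 2 h, again above all WT libraries of the same time. Its own fall was 0.47 at 1 h and 0.70 at 2 h, and the responses differed from WT by 0.41 (adjusted p = 0.00902) and 0.71 (SE 0.10, adjusted p = 3.61e-07).

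The summed neutrophil markers at 2 h were 10.44 to 10.80 in these libraries and 6.27 to 7.58 in WT libraries, and their part in these results was not tested. *Elk4*, one of the deleted genes, lies on chromosome 1 at 11.97 Mb from *Rgs2*, 12.22 Mb from *Rgs1*, 12.73 Mb from *Rgs18* and 21.71 Mb from *Rgs16*. Of the 69 tested genes between *Elk4* and *Rgs16*, 35 (50.7%) differed from WT without LPS, against 51.6% of all genes with a position, and 2 (2.9%) differed by 2-fold or more, against 1.2%.

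In *Map3k8*[D270A] cells *Rgs1* had no difference from WT past the threshold at any time (0.17, -0.12, -0.01 and 0.10), and *Rgs2* differed at 2 h by 0.28 (SE 0.07, adjusted p = 0.000852). At 0 and 0.5 h *Rgs2* was above every WT library in all 6 libraries, with means of 13.07 and 12.90 against 12.90 and 12.75, differences of 0.17 and 0.15 that did not pass, and its 1 h difference of 0.17 passed without any one of 4 libraries. The 2 h difference was 0.48 in the first replicate set and -0.01 in the second, which has 1 WT library at 2 h. In *Nfkb1*[SS/AA] cells *Rgs1* rose by 0.79 and 1.05 at 0.5 and 1 h and *Rgs2* fell by 0.71 at 1 h, and neither differed from WT past the threshold.

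With RSKi47 both genes were lower without LPS. A solvent control of that experiment was not analysed here. *Rgs1* had 12.09, 12.03, 12.08 and 11.93 without LPS, all below the WT libraries, and 12.92, 13.06, 13.18 and 12.63 at 2 h. The difference from WT was -0.31, -0.27, 0.08 and 0.49 at 0, 0.5, 1 and 2 h (adjusted p = 1.05e-06 at 2 h), and the response was larger than in WT by 0.39 at 1 h (adjusted p = 0.0159, or 0.35 and not past the threshold without RSKi47 replicate 3 at 1 h) and by 0.80 at 2 h (adjusted p = 4.21e-08). *Rgs2* had 12.45, 12.38, 12.47 and 12.09 without LPS and 12.44, 11.85, 11.89 and 11.72 at 1 h, where replicate 1 stood apart. Its difference from WT was -0.55 without LPS and -0.73 at 0.5 h (adjusted p = 3.4e-07 and 3.68e-09) and -0.05 and 0.06 at 1 and 2 h. Without RSKi47 replicate 4 at 2 h, the lowest library there at 10.98, the 2 h value was 0.25 and passed (adjusted p = 0.0248). The response differed from WT by 0.51 at 1 h (adjusted p = 0.00691), or 0.35 (adjusted p = 0.103) without replicate 1 at 1 h, and by 0.61 at 2 h (adjusted p = 0.000384).

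**Figure D4:**
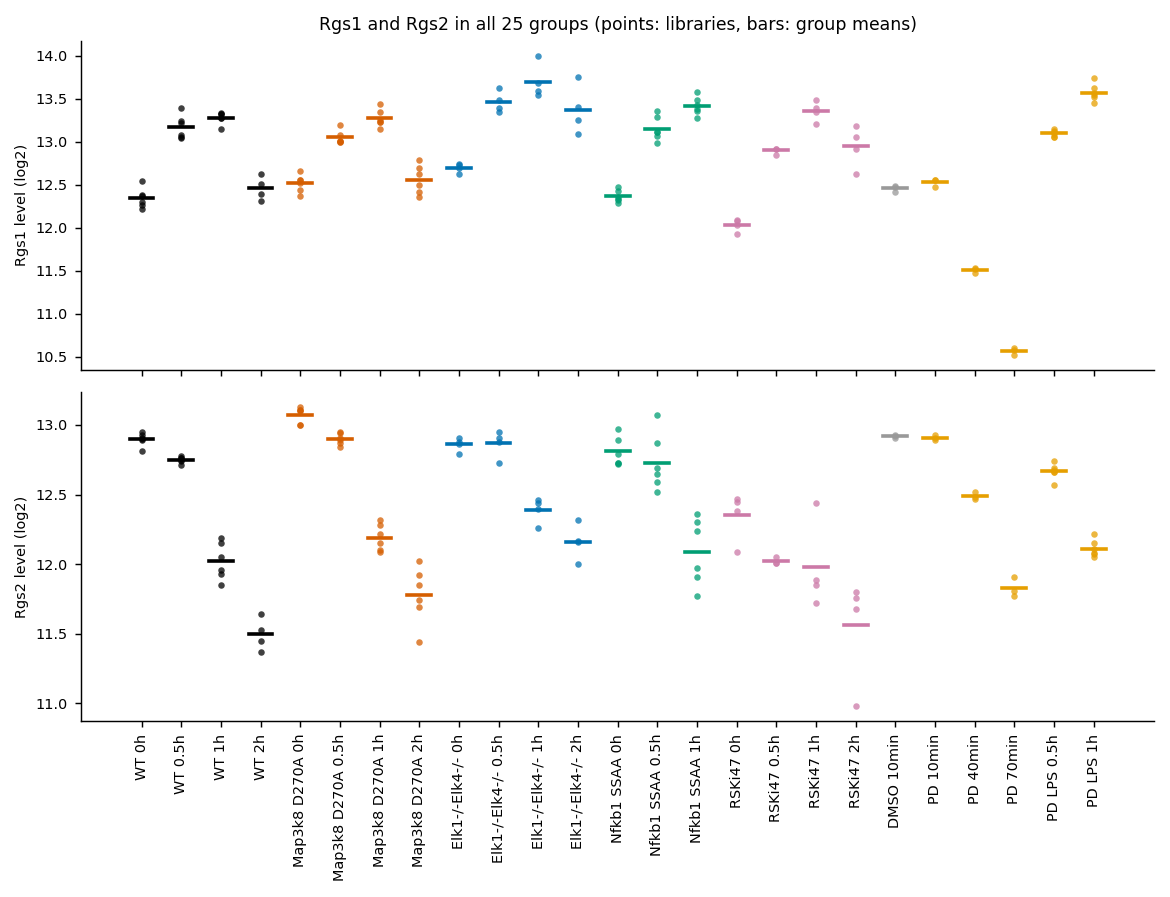
Normalised log2 level of *Rgs1* and *Rgs2* (y axes) in each library of the 25 groups (x axis), with a bar for the group mean. *Rgs1* is lowest at 70 min of PD0325901 without LPS (mean 10.57) and highest in *Elk1*-/-*Elk4*-/- cells at 1 h (mean 13.70), and *Rgs2* is lowest in WT cells at 2 h (mean 11.50).

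Over the 25 groups the mean of *Rgs1* had a range of 3.13, with 4 of 24 neighbouring pairs free of overlap. *Rgs2* ran from 11.50 in WT at 2 h to 13.07 in unstimulated *Map3k8*[D270A] cells, a range of 1.57, with 3 such pairs.

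*Rgs16* was lower than in WT without LPS in *Elk1*-/-*Elk4*-/-, *Nfkb1*[SS/AA], RSKi47 and DMSO libraries, and rose at 1 h of LPS in each genotype and with each inhibitor. *Elk1*-/-*Elk4*-/- libraries had 6.54, 6.97, 6.68 and 6.69 without LPS, 8.31, 8.25, 7.97 and 8.44 at 1 h and 8.19, 8.29, 8.03 and 8.41 at 2 h, below every WT library of the same time. The difference from WT was -1.34 without LPS (SE 0.23, adjusted p = 2.38e-06), -1.12 at 0.5 h, -0.74 at 1 h and -0.87 at 2 h, all past the threshold. Its rise within these cells was 1.52 at 1 h and 1.51 at 2 h. RSKi47 libraries had 6.89, 6.98, 7.05 and 6.42 without LPS, 7.42, 8.02, 7.79 and 7.52 at 1 h and 8.41, 8.70, 8.43 and 8.55 at 2 h, again below WT. The difference was -1.22, -1.43, -1.30 and -0.58 at 0, 0.5, 1 and 2 h (adjusted p = 1.83e-08, 4.28e-09, 3.22e-09 and 0.0116), and without replicate 4, the library with the highest fibroblast level, it was -1.08, -1.43, -1.24 and -0.59. The 2 h call was lost without WT replicate 7 (-0.47, adjusted p = 0.0629).

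In *Nfkb1*[SS/AA] cells *Rgs16* had 7.37 to 7.68 (median 7.52) without LPS and 7.91 to 8.58 (median 8.05) at 1 h, overlapping WT at both times. The difference was -0.53 without LPS (adjusted p = 0.00815, a call lost without WT replicate 9, at -0.41), -0.35 at 0.5 h (-0.46 and past the threshold without WT replicate 5) and -0.85 at 1 h (SE 0.16, adjusted p = 1.05e-05). In DMSO libraries the level was 7.25, 7.34 and 7.29, below all unstimulated WT libraries by 0.76 (adjusted p = 0.00294), and in PD0325901 libraries at 10 min it was 7.31, 7.37 and 7.38. The DMSO and PD0325901 libraries carry the label of the same experiment. Their summed neutrophil marker level was 7.28 to 8.01 in DMSO against 6.22 to 7.03 in unstimulated WT libraries, with 3 of 8 markers above every WT library, and 8.04 to 8.59 with PD0325901 and 1 h of LPS against 6.25 to 7.58 in WT, and its part in the results was not tested. With LPS for 1 h in PD0325901 *Rgs16* had 8.52 to 8.78 (median 8.70), a rise of 1.85 over 70 min of inhibitor (SE 0.20, adjusted p = 9.11e-14). The libraries of 70 min had 6.84, 6.73 and 6.85, below those of 10 min by 0.55 without overlap (adjusted p = 0.167), and the difference of responses from WT was 0.92 with the 70 min and 0.37 (adjusted p = 0.552) with the 10 min baseline. With LPS for 1 h it differed from WT by -0.33, which did not pass, or by -0.43 (adjusted p = 0.042) without WT replicate 5. At 0.5 h the difference of -0.47 (adjusted p = 0.0221) was lost without WT replicate 7 (-0.38) or 9 (-0.31).

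*Map3k8*[D270A] cells differed in the other direction. *Rgs16* had 8.20 to 9.04 (median 8.58) without LPS, 8.99 to 10.39 (median 9.58) at 1 h and 9.45 to 10.33 (median 9.82) at 2 h. The difference was 0.51 without LPS and 0.64 at 0.5 h, neither past the threshold, although the 0.5 h value was 0.80 and passed (adjusted p = 0.0249) without WT replicate 9. It was 0.63 at 1 h (SE 0.20, adjusted p = 0.0359), lost without any one of 7 libraries and not past the threshold in either replicate set (0.48 and 0.79), and 0.74 at 2 h (SE 0.23, adjusted p = 0.0108), where no library overlapped the 4 WT libraries. WT replicate 9, the highest at the earlier times, has no library at 2 h. The responses differed from those of WT by 0.14, 0.12 and 0.23 at 0.5, 1 and 2 h, and none of these passed. Over all groups *Rgs16* means ran from 6.72 to 9.84, and 1 of 24 neighbouring pairs did not overlap.

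*Rgs18* was higher in the double knockout and lower with RSKi47. *Elk1*-/-*Elk4*-/- libraries had 10.89, 11.01, 10.93 and 10.92 without LPS and 10.28, 10.32, 10.44 and 10.08 at 2 h, above every WT library of those times. The difference was 0.28, 0.25, 0.30 and 0.55 at 0, 0.5, 1 and 2 h (adjusted p = 0.000148, 0.00107, 6.01e-05 and 3.01e-09). The difference of responses at 2 h, 0.26 (adjusted p = 0.0413), was lost without any one of 12 libraries. *Rgs18* is known for its expression in megakaryocytes and platelets, and the summed platelet marker level without LPS was 11.51 to 11.82 in these libraries and 10.68 to 11.45 in WT. Of the 6 markers 2 were above every WT library and 3 were under the filter, and their part in the result was not tested.

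RSKi47 libraries had *Rgs18* at 10.25, 10.21, 10.25 and 9.67 without LPS, 10.15, 10.10, 10.12 and 9.73 at 1 h and 9.69, 9.71, 9.70 and 9.28 at 2 h, with replicate 4 the lowest at each of these times. The difference from WT was -0.56, -0.45, -0.46 and -0.14 at 0, 0.5, 1 and 2 h, of which the first 3 passed, and without replicate 4 it was -0.42, -0.45, -0.36 and -0.03. Without WT replicate 5 the 2 h value was -0.20 (adjusted p = 0.0391). The summed platelet marker level of RSKi47 libraries was 10.36 to 10.86 without LPS, overlapping WT, and 10.48 to 10.88 at 2 h, below the 10.92 to 11.44 of WT. Of the 6 markers 2 were above and 2 below every WT library at 2 h, and 3 were under the filter in both groups. *Pf4* was among those below, at 10.43 to 10.84 against 10.88 to 11.42, and the part of these markers in the result was not tested. In *Nfkb1*[SS/AA] cells *Rgs18* had 10.31 to 10.56 (median 10.43) without LPS and 10.39 to 10.46 (median 10.41) at 0.5 h, and was lower than in WT by 0.22 and 0.23 at 0 and 0.5 h (adjusted p = 0.00544 and 0.00333), and its difference of -0.15 at 1 h did not pass with all libraries and passed without any one of 5 (-0.16 to -0.19). In *Map3k8*[D270A] cells its difference of 0.15 at 2 h (adjusted p = 0.0637) passed without any one of 3 libraries, and was 0.25 (adjusted p = 0.00154) without WT replicate 7.

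**Figure D5:**
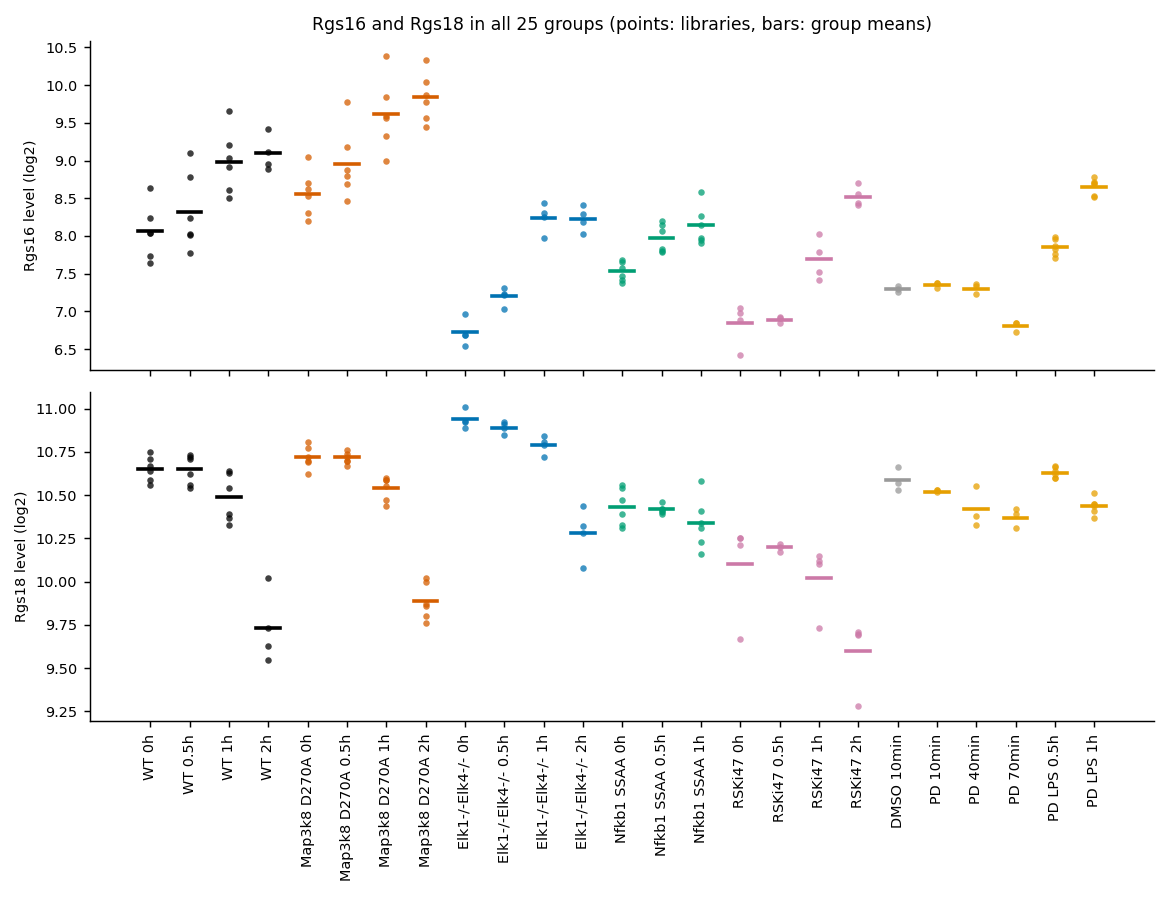
Normalised log2 level of *Rgs16* and *Rgs18* (y axes) in each library of the 25 groups (x axis), with a bar for the group mean. *Rgs16* lies below WT in *Elk1*-/-*Elk4*-/- and RSKi47 libraries at each time, and *Rgs18* replicate 4 of RSKi47 is the lowest of its group at 0, 1 and 2 h.

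*Rgs10* and *Rgs19* moved least. *Rgs10* group means ran from 11.49 to 11.97, a range of 0.48, and *Rgs19* means from 10.27 to 10.72, a range of 0.45. Without LPS *Rgs10* had 11.84 to 12.01 (median 11.94) in WT libraries, 11.65 to 11.79 in *Elk1*-/-*Elk4*-/- libraries and 11.43 to 11.66 in RSKi47 libraries, with no overlap with WT. It was lower in *Elk1*-/-*Elk4*-/- cells by 0.21, 0.15 and 0.19 at 0, 0.5 and 1 h (adjusted p = 2.02e-05, 0.00135 and 6.9e-05), with no overlap. It was lower than in WT with RSKi47 by 0.39, 0.28, 0.26 and 0.22 at the 4 times, and by 0.35, 0.28, 0.21 and 0.16 without replicate 4, all past the threshold. In *Nfkb1*[SS/AA] cells at 1 h, the group with its highest mean, it was higher than in WT by 0.12 (adjusted p = 0.0109), a call lost without WT replicate 8 (0.10) or *Nfkb1*[SS/AA] replicate 2 (0.07) and in a fit of both groups alone (adjusted p = 0.193). *Rgs19* had no difference from WT past the threshold in *Map3k8*[D270A], *Elk1*-/-*Elk4*-/-, *Nfkb1*[SS/AA] or PD0325901 cells at any time with all libraries, although in *Elk1*-/-*Elk4*-/- cells without LPS it passed without WT replicate 7 (-0.09, adjusted p = 0.0377). With RSKi47 it was lower by 0.19, 0.19 and 0.12 at 0, 0.5 and 1 h (adjusted p = 1.5e-06, 1.39e-05 and 0.00205).

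The inhibitors act at successive steps, on MKK1/2 above ERK1/2 and on RSK1/2 below it, and were compared at 1 h of LPS. They were used at different doses and in separate experiments. PD0325901 libraries were higher in 6 of 7 members, against 53.9% of all genes that differed in either direction. *Rgs16* differed by 0.97 (SE 0.18, adjusted p = 4.37e-06), *Rgs3* by 0.58 (SE 0.06, adjusted p = 1.06e-13), *Rgs18* by 0.41 (SE 0.07, adjusted p = 7.31e-07) and *Rgs10* by 0.22 (SE 0.05, adjusted p = 3.67e-05). *Rgs1* differed by 0.21 (adjusted p = 0.0169), lost without PD0325901 replicate 1 (0.18) or RSKi47 replicate 4 (0.16), and *Rgs19* by 0.09 (adjusted p = 0.0193), lost without RSKi47 replicate 3 (0.07). *Rgs2* differed by 0.14 and did not pass, and by 0.29 past the threshold without RSKi47 replicate 1. Against WT at 1 h, *Rgs1* and *Rgs3* were the members past the threshold with PD0325901, and *Rgs10*, *Rgs16*, *Rgs18* and *Rgs19* those with RSKi47.

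The members did not share one pattern. Over the 25 group means, as a description of groups that share a laboratory and a normalisation, *Rgs2* and *Rgs19* had a Pearson correlation of 0.87, *Rgs2* and *Rgs18* of 0.81 and *Rgs18* and *Rgs19* of 0.79. *Rgs3* had correlations of -0.26 to 0.30 with the other members. The tested genes whose group means were most like those of *Rgs1* were *Cep70* (0.864), *Strn3* (0.823) and *Kin* (0.819), and those most like *Rgs2* were *3110052M02Rik* (0.914), *Zfp426* (0.904) and *Dusp6* (0.902), a phosphatase of ERK1/2. For *Rgs3* they were *Fgfr1op2* (0.709), *Zfp959* (0.7) and *Eef1a1* (0.694), the lowest of the 7 sets. For *Rgs16* they were *Pfdn4* (0.88), *Eef1e1* (0.868) and *Gm11974* (0.864), and for *Rgs18* they included *Snx5* (0.942) and *C330018D20Rik* (0.941). *Rgs10* was most like *Lamtor4* (0.941), *Cyb5r1* (0.934) and *Sptssa* (0.933), and *Rgs19* most like *BC017643* (0.967), *Bloc1s5* (0.961) and *Pagr1a* (0.959).

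The remaining genes of G-protein signalling were taken from fixed lists and read at 2 h of LPS in WT, where 71.5% of all genes had changed, 4122 higher and 4377 lower. Of the other RGS genes 12 of 16 were in the table and 4 passed the filter, of which 1 rose and 2 fell. *Rgs9* rose by 0.98 (adjusted p = 2.55e-13), *Rgs14* fell by 1.00 (adjusted p = 1.04e-19) and *Rgs12* fell by 0.28 (adjusted p = 0.0123). *Rgs9* lay near the filter on low values, at 2.99 to 4.47 over all libraries (median 3.41). Of 9 alpha subunits 5 rose and 4 fell, with *Gna13*, the G13 subunit, at 1.29 and *Gnai3*, a Gi subunit, at 0.76, and *Gna15* at -0.64 and *Gnal* at -0.55. Of 13 beta and gamma subunits 6 rose and 2 fell, with *Gng4* at 1.24, *Gnb4* at 0.52, *Gnb1* at 0.44 and *Gnb5* at -0.43.

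Of 7 receptor kinases and arrestins, which uncouple active receptors, 2 rose and 4 fell, with *Adrbk2* at 1.23, *Grk5* at 0.41, *Arrb1* at -0.76 and *Grk6* at -0.66. Of 8 other regulators 2 rose and 6 fell, with *Akap10* at -0.93, *Ric8b*, a chaperone and exchange factor of alpha subunits, at -0.69, *Gpsm2* at -0.54 and *Gpsm1* at -0.45, and the median of -0.36 was the lowest of the lists. Of 37 receptors 20 rose and 12 fell, with a median of 0.48. The adenosine receptor *Adora2a* was at 5.94, the fatty acid receptor *Gpr84* at 4.08, the formyl peptide receptor *Fpr2* at 3.51 and the lysophosphatidic acid receptor *Lpar1* at 3.29. Of 15 effectors, adenylyl cyclases and cAMP phosphodiesterases among them, 4 rose and 6 fell, with *Pde4b* at 2.74, *Adcy6* at 1.52, *Adcy9* at -1.07 and *Pde4a* at -0.69.

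After 70 min of PD0325901 without LPS *Rgs1* and *Rgs2* fell and 6.09% of all genes had changed. In the lists of other RGS genes, alpha subunits, beta and gamma subunits, kinases and arrestins, and other regulators 0 genes passed the threshold of limma. These lists held 0, 1, 2, 0 and 3 genes at an unadjusted p below 0.05, against 2044 of the 11971 genes tested. Of the 37 receptors 1 rose and 4 fell, and of the 15 effectors 1 rose, *Adcy6* by 0.88 (adjusted p = 9.49e-07). In *Map3k8*[D270A] cells at 2 h, where 27.7% of all genes differed from WT, 4 of 37 receptors were higher and 15 lower, with *Gpr84* at -1.27, *Fpr2* at -0.80 and *Lpar1* at -0.50 past the threshold and *Adora2a* at -0.05 not. Of 9 alpha subunits 1 was higher and 3 were lower, of 13 beta and gamma subunits 1 was higher and 2 were lower, and of 15 effectors 3 were higher and 2 lower. Of 8 other regulators 1 was higher and 1 lower, of 7 kinases and arrestins 0 were higher and 1 lower, and of the 4 other RGS genes 0 were higher and 1 lower, *Rgs9*, which lay near the filter, by 0.52.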

How the data were processed

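The libraries were TruSeq, single-end and strand-specific, sequenced on an Illumina HiSeq (methods of the study). The authors aligned the reads to mm10 with STAR and had RSEM estimate counts for each RefSeq gene, which DESeq2 then compared at a false discovery rate of 0.05. The submitters' notes name RSEM 1.2.29, STAR 2.5.1b and DESeq2 1.10.1. The deposited values used here are log2-scale normalised levels, 1 per gene and library. Which transformation made them is not stated in those sources, and counts and the depth of each library are unknown here, since the methods give a typical read yield for all libraries together. The 18098 genes had values from -2.40 to 19.81, and the library medians were 7.01 to 7.22. No 2 of the 119 libraries were identical (0 pairs). A single value above 25, for *Fosb* in an RSKi47 library, was set missing.

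Groups and replicate numbers were taken from the labels. limma 3.58.1 in R 4.3.3 (lmFit, contrasts.fit and eBayes without a trend) was run on the values as deposited. One model held the 62 WT, *Map3k8*[D270A] and *Elk1*-/-*Elk4*-/- libraries and 11884 genes, each reaching 10 on the linear scale in 4 libraries or more. A second held all 119 libraries and 11971 genes that reach it in 3 or more, and served the other arms. P-values were adjusted by Benjamini-Hochberg over all genes tested, and a gene was called changed at an adjusted p below 0.05. The scripts were tested on simulated data.

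Alternatives were a trend in limma, median centring, quantile normalization, no filter, a fit of the compared groups only, the replicate number as a block, the replicate sets within WT and *Map3k8*[D270A], a fit of all libraries, averaged PD0325901 pairs and each library left out in turn. The comparisons between WT times, between inhibitor times, between inhibitors and of DMSO with WT, the 10 min inhibitor baseline, and all alternatives for the LPS responses within the mutant and RSKi47 arms were added after the data were seen. Same-numbered libraries of unstimulated and LPS-treated cells deviated together in WT (lowest correlation 0.164), *Nfkb1*[SS/AA] (0.145), *Map3k8*[D270A] (0.124) and RSKi47 (0.109) libraries, and in *Elk1*-/-*Elk4*-/- libraries at 1 h (0.141), so numbers were read as pairs there.

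The 7 members and the gene lists were chosen with earlier results of these data known. Genes named besides the members are the 3 most correlated with each member over 25 group means (1 of these genes is not reported here), and of each list up to 4 genes with the largest change at 2 h of LPS in WT. Promoter windows and positions are from RefSeq (GRCm38.p6).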

Additional observations from a re-analysis of the deposited data

Results flagged for a closer look

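Of 140 combinations of gene and group with 4 or more libraries, 10 held a library far from the rest of its group by Dixon's test, where chance gives about 1 in 20. Of these, 5 were in RSKi47 replicate 4: *Rgs18* at 9.67 without LPS, 9.73 at 1 h and 9.28 at 2 h, *Rgs2* at 10.98 at 2 h and *Rgs19* at 10.19 at 2 h, and each was the lowest of its group. The others were *Rgs1* in WT replicate 4 at 1 h (13.15), *Rgs19* in WT replicate 7 at 1 h (10.45), *Rgs3* in *Map3k8*[D270A] replicate 4 without LPS (8.18), *Rgs3* in *Elk1*-/-*Elk4*-/- replicate 3 at 2 h (8.82) and *Rgs10* in *Nfkb1*[SS/AA] replicate 2 at 1 h (12.25).

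The response to LPS differed from that of WT in 19 of 91 tests by limma. The comparisons share the WT libraries, and from 0.0251% to 21% of all genes passed in each. In *Map3k8*[D270A] cells *Rgs3* differed by 0.76 at 1 h and 0.42 at 2 h. In *Elk1*-/-*Elk4*-/- cells *Rgs2* differed by 0.41 and *Rgs3* by 0.54 at 1 h, and *Rgs1* by 0.55, *Rgs2* by 0.71, *Rgs10* by 0.17 and *Rgs18* by 0.26 at 2 h, where the *Rgs10* value was lost without any one of 10 libraries and the *Rgs18* value without any one of 12. In *Nfkb1*[SS/AA] cells *Rgs3* differed by 0.41 at 1 h. With PD0325901, *Rgs1* differed by 0.77 at 0.5 h, and *Rgs1* by 2.07, *Rgs2* by 1.16, *Rgs3* by 0.48 and *Rgs16* by 0.92 at 1 h, where the *Rgs16* value was lost without any one of 5 libraries. With RSKi47, *Rgs1* differed by 0.39 and *Rgs2* by 0.51 at 1 h, and *Rgs1* by 0.80, *Rgs2* by 0.61 and *Rgs18* by 0.42 at 2 h. With the 10 min inhibitor libraries as baseline the PD0325901 values of *Rgs1* were -0.26 at 0.5 h and 0.11 at 1 h, and at 1 h those of *Rgs2*, *Rgs16* and *Rgs3* were 0.08, 0.37 and 0.51, of which *Rgs3* alone passed.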

How the results depend on the processing

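The 378 results for single members kept direction and side of the threshold in 2595 tries under alternative settings, passed newly in 113, were lost in 44 and reversed in 6. Leaving out libraries one at a time gave 4657, 53 and 64. The 6 reversals were, under quantile normalization, the responses of *Rgs1* at 2 h in WT (-0.29) and *Map3k8*[D270A] cells (-0.31) and of *Rgs10* at 1 h in *Nfkb1*[SS/AA] cells (-0.14), *Rgs10* with LPS against 70 min of PD0325901 under quantile normalization (-0.15), *Rgs2* in *Map3k8*[D270A] cells at 2 h within WT 7 to 9 and *Map3k8*[D270A] 4 to 6 (-0.01) and the *Rgs1* response difference of PD0325901 at 0.5 h with the 10 min baseline (-0.26). The cause was not tested.

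Shares of all genes under alternative settings are given above for some replicate-block counts only, so the other counts cannot be read against all genes. The number of the 7 members called changed moved by over 1.5 times as follows. For WT at 0.5 h (1) it was 2 with a trend, 3 with median centring, 3 with quantile normalization, 2 with the compared groups only, 4 with the replicate block, 2 in the first replicate set and 1 to 2 with a library left out. For the 0.5 h response in *Map3k8*[D270A] cells (1) it was 3 with the compared groups only and 3 with the block, in *Elk1*-/-*Elk4*-/- cells (1) 2 and 2, in *Nfkb1*[SS/AA] cells (1) 2 with median centring, 3 with quantile normalization, 2 with the compared groups only, 3 with the block and 1 to 2 with a library left out, and in RSKi47-treated cells (1) 2 with quantile normalization, the block or without replicate 4 at every time and 1 to 2 with a library left out. For *Map3k8*[D270A] against WT at 0 h (0) it was 1 with the compared groups only, 5 with the replicate block and 3 in the first set. At 0.5 h (0) it was 2 with the compared groups only, 4 with the block, 1 in the first set, 1 in the fit of all libraries and 0 to 1 with a library left out. At 1 h (2) it was 1 without a filter, 1 with the compared groups only, 6 with the block, 1 in the second set and 1 to 3 with a library left out, and at 2 h (3) it was 5 and 1 in the sets, the second with 1 WT library. For PD0325901 with LPS against WT at 0.5 h (1) it was 0 with the block, 0 with averaged pairs and 0 to 1 with a library left out. Against inhibitor alone at 0.5 h (1) it was 2 with a trend, 4 with the compared groups only, 3 with the block and 1 to 2 with a library left out. Pairing by number did not hold between inhibitor and LPS libraries of PD0325901 (lowest correlation -0.267). Between unstimulated and 0.5 or 2 h libraries of *Elk1*-/-*Elk4*-/- cells the lowest correlations were 0.044 and -0.043. The medians there were 0.258 and 0.208, against -0.041 and -0.066 for unlike numbers, so pairing was not settled. The numbers of different genotypes were not shown to pair.

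Among response differences, *Elk1*-/-*Elk4*-/- at 1 h (2) gave 1 in the fit of all libraries, and at 2 h (4) gave 2 with median centring, quantile normalization or the compared groups only and 2 to 4 with a library left out. PD0325901 at 0.5 h (1) gave 2 with the compared groups only, 3 with the block and 0 with the 10 min baseline, and at 1 h (4) gave 1 with that baseline. RSKi47 at 1 h (2) gave 1 with the compared groups only and 1 to 2 with a library left out, and at 2 h (3) gave 5 with quantile normalization, 7 with the block and 3 to 5 with a library left out. PD0325901 at 40 against 10 min (2) gave 1 to 2 with a library left out. DMSO against WT (1) gave 2 with median centring, 2 with quantile normalization, 3 with the block and 1 to 2 with a library left out.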
